A study of Homo sapiens with 6 samples.

Results

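The transcripts of 8 liver-enriched transcription factors, HNF4A, FOXA1, FOXA2, FOXA3, CEBPA, HHEX, ONECUT1 and PROX1, were followed in HepG2 cells given oridonin, a diterpenoid of the plant Isodon rubescens. The factors were taken by symbol from the deposited annotation and joined by Ensembl identifier to the counts. They are 8 of 60504 counted genes, and all 8 passed the filter on low counts that left 15116 genes for testing. HepG2 is an established human liver carcinoma line grown adherent in DMEM, and as 1 line it stands for no other liver cell. RNA sequencing libraries came from 3 wells or samples treated with 10 µM oridonin and 3 treated with 0.1% DMSO, all for 48 h. The labels do not say whether the oridonin wells held DMSO, nor whether the 3 samples of a treatment were separate cultures, so p-values measure only the spread between these samples. By its title, the series asks how oridonin acts on metabolism.

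Hepatocyte identity rests on a small set of transcription factors that bind together at liver enhancers and promoters and also at each other's genes. The FOXA proteins are forkhead factors that can bind closed chromatin and open it for others. HNF4A is a nuclear receptor that drives lipoprotein, clotting factor and metabolic genes in hepatocytes, and CEBPA is a leucine zipper factor of the differentiated, resting liver. HHEX, ONECUT1 and PROX1 are homeobox-type factors known from the forming liver and bile ducts, and they stay on in the adult organ.

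Of the 8 factors, 7 fell with oridonin and 1, HNF4A, did not pass the test. Across all 15116 genes tested, 41.9% had a Benjamini-Hochberg adjusted p under 0.05 in edgeR's quasi-likelihood fit, 20.6% on the higher side and 21.3% on the lower side. The median log2 fold change of the 8 factors was -0.42, against 0.011 over all genes tested. The falls were of unequal size. ONECUT1 and HHEX were at 49.4% and 55.4% of their DMSO level, FOXA1 and CEBPA at 65.5% and 67.1%, and FOXA2, PROX1 and FOXA3 at 83.3%, 83.8% and 87.4%. The groups did not overlap in CPM (counts scaled to library size adjusted by TMM factors) for the 7 factors that fell. Of all tested genes, 25.6% lay wholly lower in oridonin libraries by this measure. In bulk RNA, fewer cells that express a gene and less of its RNA per cell cannot be told apart.

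**Figure D1:**
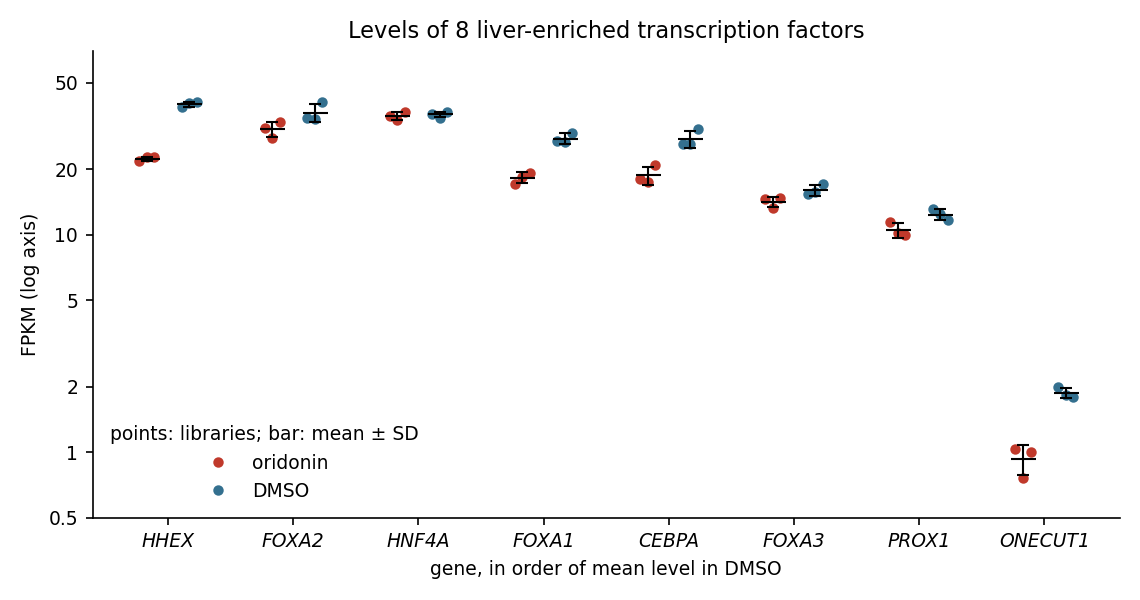
Levels of the 8 factors in FPKM (fragments scaled to gene length and library size, log axis), with 3 oridonin libraries left of 3 DMSO libraries for each gene, as points with mean and SD. HNF4A is the gene whose groups overlap, and ONECUT1 lies far below the others, at 0.763 to 1.04 FPKM with oridonin and 1.79 to 1.99 FPKM with DMSO.

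The sequences ahead of the RefSeq transcription starts are shown for the 4 factors that fell most and for HNF4A, the 1 that did not pass the test. The set of RefSeq (GRCh38.p14) promoters used here held entries for 6 of the 8 factors, 7 entries in all, of which HNF4A had 2. It held none for FOXA2 and PROX1, so their windows were not examined. Each line is the 250 bases before that start, on the gene's strand. Capitals mark matches, on either strand, to 1 of 5 motifs searched: TGTTTNC for forkhead factors, CAAAGTCCA for HNF4A, TTGCNNAA for C/EBP factors, ATTGATT for ONECUT factors and TATAAA for the TATA box. HNF4A has a window at a distal start (chr20:44355449-44355698, plus strand) and one at a proximal start (chr20:44400989-44401238, plus strand), and the counts per gene do not separate transcripts from these starts. The other windows are chr14:37595250-37595499, minus strand, chr19:33302535-33302784, minus strand, chr10:92689705-92689954, plus strand and chr15:52790337-52790586, minus strand, for FOXA1, CEBPA, HHEX and ONECUT1 in this order. The genes as counted do not all begin at the RefSeq start. The proximal HNF4A window and the windows of FOXA1, ONECUT1 and FOXA3 lie wholly inside the counted gene, those of CEBPA and HHEX overlap its first bases, and the distal HNF4A window lies ahead of it.
HNF4A distal: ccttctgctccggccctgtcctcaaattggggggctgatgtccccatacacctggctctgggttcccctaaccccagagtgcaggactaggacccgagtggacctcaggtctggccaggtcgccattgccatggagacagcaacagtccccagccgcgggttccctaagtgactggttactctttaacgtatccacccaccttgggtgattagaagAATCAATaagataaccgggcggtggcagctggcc
HNF4A proximal: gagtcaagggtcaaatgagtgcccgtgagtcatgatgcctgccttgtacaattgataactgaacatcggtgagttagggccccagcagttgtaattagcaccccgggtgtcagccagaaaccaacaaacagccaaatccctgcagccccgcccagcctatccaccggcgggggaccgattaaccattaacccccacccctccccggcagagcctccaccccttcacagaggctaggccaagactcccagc
FOXA1: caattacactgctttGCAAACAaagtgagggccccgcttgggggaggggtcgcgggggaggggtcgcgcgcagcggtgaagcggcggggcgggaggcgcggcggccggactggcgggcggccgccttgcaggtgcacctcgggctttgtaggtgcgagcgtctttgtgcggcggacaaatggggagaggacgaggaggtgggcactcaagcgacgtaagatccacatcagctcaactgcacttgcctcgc
CEBPA: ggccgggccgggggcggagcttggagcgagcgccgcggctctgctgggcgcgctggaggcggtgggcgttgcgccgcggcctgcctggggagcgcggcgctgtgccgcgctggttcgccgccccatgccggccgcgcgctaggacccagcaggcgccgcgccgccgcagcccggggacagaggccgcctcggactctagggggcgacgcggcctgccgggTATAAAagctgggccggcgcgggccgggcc
HHEX: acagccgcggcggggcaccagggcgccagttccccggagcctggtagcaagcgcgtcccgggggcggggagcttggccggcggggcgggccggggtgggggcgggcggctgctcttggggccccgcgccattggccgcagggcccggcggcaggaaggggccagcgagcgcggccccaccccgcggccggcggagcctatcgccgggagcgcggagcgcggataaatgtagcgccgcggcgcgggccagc
ONECUT1: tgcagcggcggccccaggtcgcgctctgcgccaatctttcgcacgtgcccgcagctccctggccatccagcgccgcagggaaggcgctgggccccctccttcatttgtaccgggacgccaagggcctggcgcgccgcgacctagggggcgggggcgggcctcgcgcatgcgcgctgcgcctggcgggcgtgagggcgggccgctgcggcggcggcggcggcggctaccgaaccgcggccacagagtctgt

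The 4 factors that fell most had windows rich in G and C, at 67.2% for FOXA1, 81.2% for CEBPA, 81.2% for HHEX and 76.8% for ONECUT1. The HNF4A windows were at 58.4% (distal) and 58.0% (proximal), and the median over all 35116 RefSeq windows of this length was 58.0%. CpG pairs numbered 26, 41, 38 and 37 in the windows of FOXA1, CEBPA, HHEX and ONECUT1, 8 and 8 in those of HNF4A, and 11 in the median window. FOXA3, whose fall was small, also had a rich window, at 75.2% with 28 CpG pairs. FOXA2 and PROX1, whose falls were small too, had no window, and a link between composition and the falls was not tested. The FOXA1 window held 1 forkhead match, which began at base -235 from the start. The distal HNF4A window held 1 ONECUT match, and the windows of CEBPA and FOXA3 held a TATA box that began at base -30. At any position and on either strand, 15.5% of all windows hold a forkhead match, 1.98% an ONECUT match and 10.7% a TATAAA match. The proximal HNF4A window held no match to the 5 motifs and is printed without capitals. No HNF4 or C/EBP match lay in any of the 7 windows, where 0.325% and 9.05% of all windows hold one. No 2 matches shared a base. These are matches of letters only, and other spellings of the same sites were not searched.

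FOXA1 (ENSG00000129514, hg38 chr14:37589984-37596059, minus strand) fell most of the forkhead factors. Its level was 17.2, 18.4 and 19.3 FPKM in oridonin libraries 1 to 3, against 26.9, 26.5 and 29.5 FPKM in DMSO libraries 1 to 3. Every oridonin library lay below every DMSO library, with a gap wider than the spread within either group. In log2 units it fell by 0.61 ± 0.06 (SE, n = 3 per group, edgeR adjusted p = 1.92e-07), and 5.99% of tested genes had a lower value.

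FOXA2 (ENSG00000125798, hg38 chr20:22581005-22585455, minus strand), which acts in endoderm, liver and pancreas, had 30.9, 27.9 and 32.9 FPKM in oridonin libraries 1 to 3 and 34.5, 34.1 and 40.5 FPKM in DMSO libraries 1 to 3. The groups lay close, since the highest oridonin library was just under the lowest DMSO library, and DMSO library 3 stood above the other two. The log2 fold change came to -0.26 ± 0.07 (SE, edgeR adjusted p = 0.00772). limma on log2 FPKM did not call it (adjusted p = 0.0581), and over all 12 other settings the adjusted p ran from 2.94e-06 to 0.0581.

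FOXA3 (ENSG00000170608, hg38 chr19:45863989-45873797, plus strand), the paralogue most tied to adult liver, had 14.5, 13.3 and 14.7 FPKM in oridonin libraries 1 to 3 and 15.4, 15.7 and 17.03 FPKM in DMSO libraries 1 to 3. For FOXA3 the log2 fold change stood at -0.19 ± 0.07 (SE, edgeR adjusted p = 0.0247). This call was lost in 4 of 12 other settings: without oridonin library 2 (-0.15), without DMSO library 3 (-0.16), with total-count scaling (-0.11) and with limma on log2 FPKM (-0.18). No other factor that fell lost its call in more than 1 of these settings.

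FOXA1 held a smaller part of the FOXA transcripts in every oridonin library than in any DMSO library. Summed over the 3 paralogues, the level was 63.0 ± 3.72 FPKM in oridonin libraries and 80.0 ± 6.04 FPKM in DMSO libraries (SD, n = 3 each). FOXA1 made up 29.04 ± 1.75% of that sum with oridonin and 34.6 ± 0.627% with DMSO (SD, n = 3 each), a difference of -5.52 percentage points. FOXA2 made up 48.5 ± 1.43% with oridonin and 45.4 ± 1.02% with DMSO, and FOXA3 22.5 ± 0.626% with oridonin and 20.04 ± 0.486% with DMSO. None of the 3 shares overlapped between the groups. Each gave p = 0.1 in a two-sided exact permutation test, the smallest that 3 against 3 libraries allow. Over the 14 shares and ratios tested in this way, the adjusted permutation p was 0.117. The shares of a library add up to the whole, so the 3 tests are not separate results. FOXA2 and FOXA3 held larger shares although their own levels fell.

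**Figure D2:**
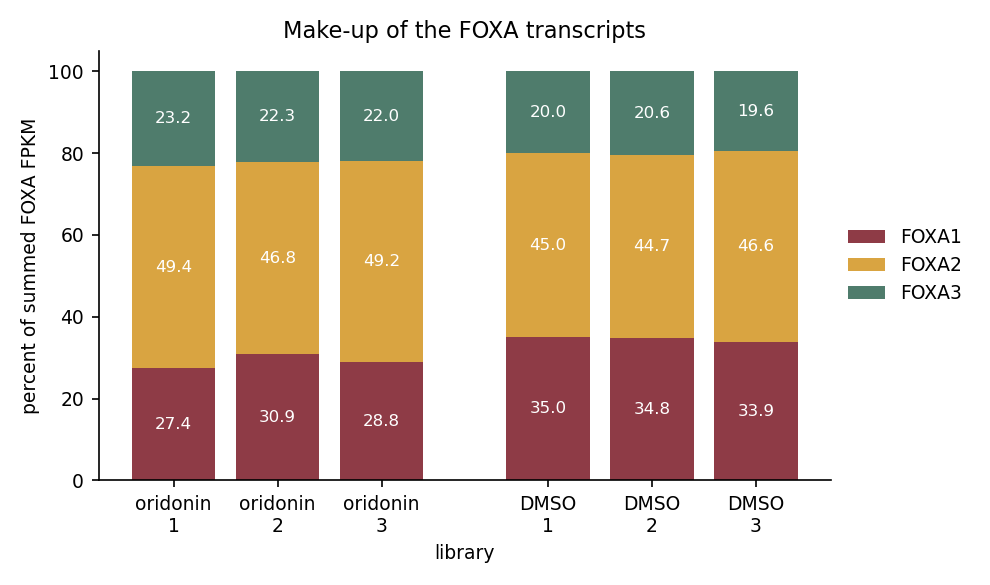
Percent of the summed FOXA1, FOXA2 and FOXA3 FPKM held by each paralogue, as stacked bars for 3 oridonin libraries left of 3 DMSO libraries. FOXA1 holds 27.4% to 30.9% with oridonin and 33.9% to 35.0% with DMSO.

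HNF4A (ENSG00000101076, hg38 chr20:44355700-44434596, plus strand) did not pass the test. It had 35.0, 33.6 and 36.5 FPKM in oridonin libraries 1 to 3 and 36.0, 34.5 and 36.5 FPKM in DMSO libraries 1 to 3. The ranges of the groups overlapped almost wholly, and 5852 to 8149 counts per library stood behind these values. The difference came to -0.04 ± 0.05 in log2 units (SE, n = 3 per group, edgeR adjusted p = 0.502). With total-count scaling the sign was opposite, at 0.04, and no setting called the gene.

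CEBPA (ENSG00000245848, hg38 chr19:33299934-33302564, minus strand) also fell, but its value is uncertain. Its level was 18.0, 17.5 and 20.8 FPKM in oridonin libraries 1 to 3, against 26.2, 26.0 and 30.5 FPKM in DMSO libraries 1 to 3. Library 3 was the highest of both groups, and the groups stayed apart. In log2 units CEBPA fell by 0.57 ± 0.07 (SE, edgeR adjusted p = 1.27e-05). In the GENCODE 29 annotation, 43.4% of the exonic bases of CEBPA also lie in exons of antisense genes, and the 2 antisense genes that overlap it had 0 counts in all 6 libraries. How reads in that stretch were assigned was not tested, so the level of CEBPA is uncertain.

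HHEX (ENSG00000152804, hg38 chr10:92689951-92695646, plus strand), a homeobox factor without which the liver bud fails to grow in mice, had the fall with the narrowest spread. It had 21.7, 22.6 and 22.6 FPKM in oridonin libraries 1 to 3, against 38.6, 40.2 and 40.5 FPKM in DMSO libraries 1 to 3. The distance between the groups was many times the spread within them. HHEX fell by 0.85 ± 0.05 in log2 units (SE, edgeR adjusted p = 1e-09), and 2.70% of tested genes had a lower value.

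ONECUT1 (ENSG00000169856, hg38 chr15:52756989-52791078, minus strand), also called HNF6, acts in hepatocyte and bile duct development. It was scarce, with 127, 90 and 108 counts in oridonin libraries 1 to 3 and 170, 203 and 189 counts in DMSO libraries 1 to 3. Scaled to gene length, these were 1.04, 0.763 and 1.01 FPKM with oridonin and 1.99, 1.84 and 1.79 FPKM with DMSO. Its log2 fold change was the lowest of the 8 but also the least precise, at -1.02 ± 0.13 (SE, edgeR adjusted p = 8.7e-06), and 1.601% of tested genes had a lower one.

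PROX1 (ENSG00000117707, hg38 chr1:213983181-214041502, plus strand), a prospero-type factor known as a corepressor of nuclear receptors such as HNF4A, fell slightly. It had 11.4, 10.1 and 9.92 FPKM in oridonin libraries 1 to 3 and 13.1, 12.4 and 11.6 FPKM in DMSO libraries 1 to 3. Oridonin library 1 came close to DMSO library 3, without overlap. PROX1 fell by 0.25 ± 0.06 in log2 units (SE, edgeR adjusted p = 0.0045).

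**Figure D3:**
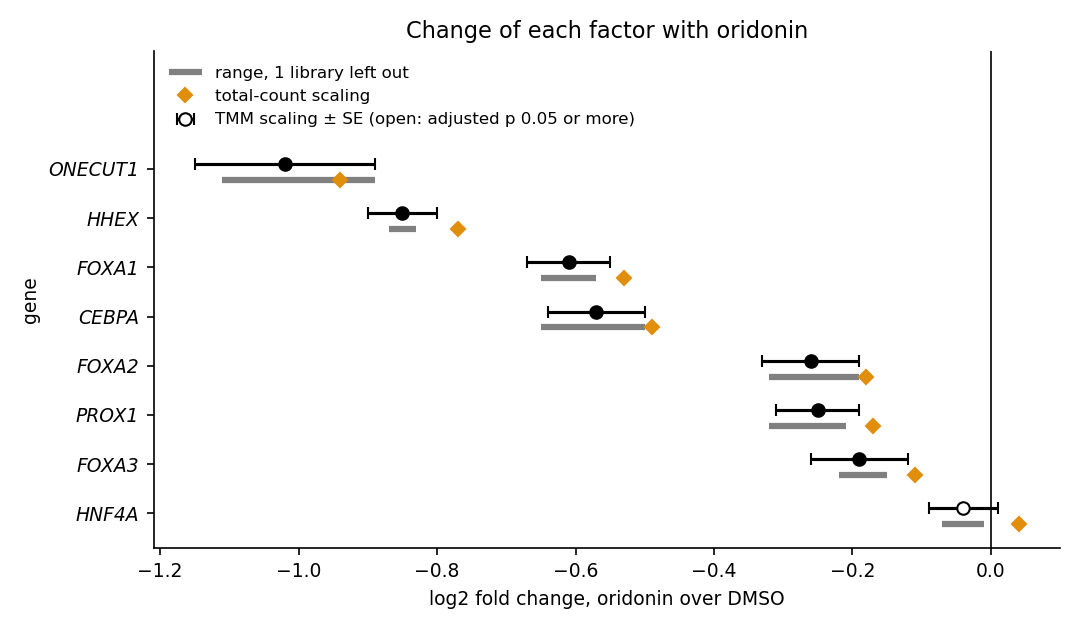
Log2 fold change of each factor, oridonin over DMSO, with its SE (circles, open where the adjusted p was 0.05 or more), the range when 1 library was left out (grey bars) and the value with total-count scaling (diamonds). The factors run from ONECUT1 at -1.02 to HNF4A at -0.04, and total-count scaling moved each to a higher value.

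The order of the levels differed between the treatments. With oridonin it ran, in mean FPKM, HNF4A (35.0), FOXA2 (30.6), HHEX (22.3), CEBPA (18.8), FOXA1 (18.3), FOXA3 (14.2), PROX1 (10.5) and ONECUT1 (0.935). With DMSO it ran HHEX (39.8), FOXA2 (36.4), HNF4A (35.7), FOXA1 (27.6), CEBPA (27.6), FOXA3 (16.0), PROX1 (12.4) and ONECUT1 (1.87). With oridonin, CEBPA and FOXA1 were the only neighbours whose libraries overlapped. With DMSO, HHEX overlapped FOXA2, FOXA2 overlapped HNF4A, and FOXA1 overlapped CEBPA. HHEX thus lay below HNF4A and FOXA2 in all oridonin libraries. In DMSO libraries 1 and 2 HHEX lay above FOXA2, and in DMSO library 3 both stood at 40.5 FPKM. The uncertain count of CEBPA bears on its place, and the order between genes rests on the deposited gene lengths.

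Ratios to HNF4A within a library do not depend on how libraries are scaled. Which gene lies higher does rest on the gene lengths used, 7311 bases for HNF4A and 2525 bases for HHEX. Without scaling to length, HHEX was below HNF4A with DMSO too, at a mean of 101 against 262 CPM. The log2 ratio of HHEX to HNF4A was -0.65 ± 0.07 with oridonin and 0.16 ± 0.06 with DMSO (SD, n = 3 each), so HHEX lay below HNF4A in 3 of 3 oridonin libraries and above it in 3 of 3 DMSO libraries. For ONECUT1 the ratio was -5.24 ± 0.20 with oridonin and -4.25 ± 0.09 with DMSO, and for FOXA1 -0.94 ± 0.08 with oridonin and -0.37 ± 0.06 with DMSO (SD, n = 3 each). CEBPA stood at -0.90 ± 0.08 relative to HNF4A with oridonin and -0.38 ± 0.10 with DMSO (SD, n = 3 each). The ratios of FOXA2 and FOXA3 differed by -0.22 and -0.15 between oridonin and DMSO, without overlap. These 6 ratios each gave p = 0.1 in the two-sided exact permutation test, again the smallest possible. The ratio of PROX1 to HNF4A overlapped between the groups, at -1.74 ± 0.13 with oridonin and -1.53 ± 0.10 with DMSO (SD, n = 3 each, exact permutation p = 0.2).

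**Figure D4:**
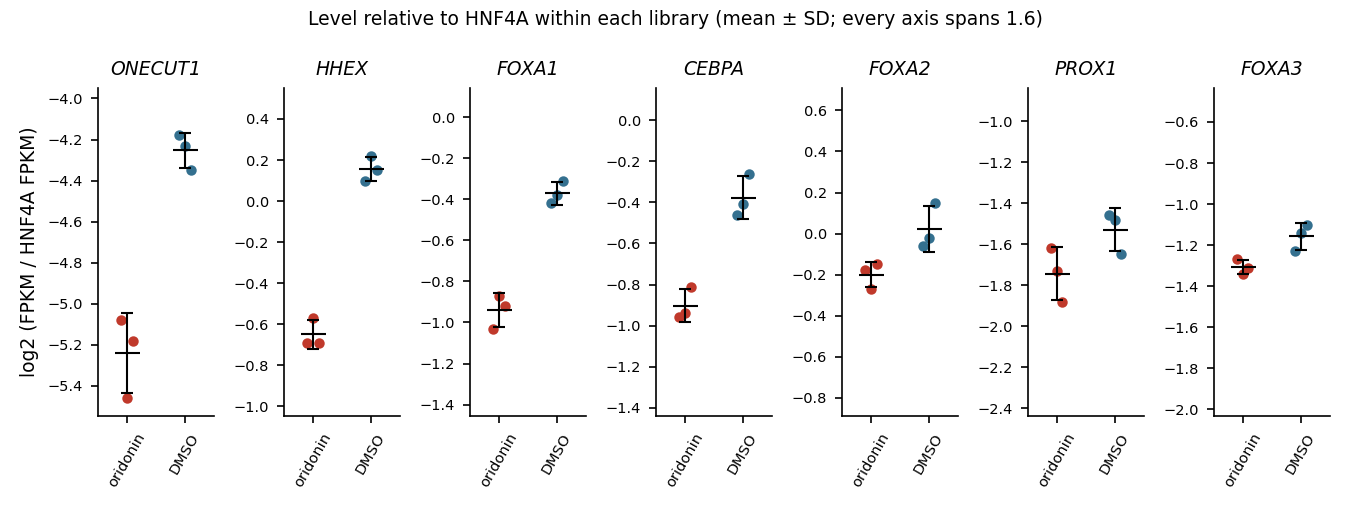
Log2 ratio of each factor's FPKM to that of HNF4A in the same library, with 3 oridonin libraries left of 3 DMSO libraries (points, mean and SD). The groups stand apart for ONECUT1, HHEX, FOXA1, CEBPA, FOXA2 and FOXA3 and overlap for PROX1.

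Genes beside the factors did not all move with them. LINC00261, a long non-coding RNA that lies 2363 bases from FOXA2 on the same strand, fell to 56.7 ± 0.563 CPM in oridonin libraries, against 98.7 ± 6.21 CPM in DMSO libraries (SD, n = 3 each). That is -0.80 ± 0.06 in log2 units (SE, edgeR adjusted p = 8.27e-09), where FOXA2 was at -0.26. The ratio of LINC00261 to FOXA2 counts was 0.697, 0.794 and 0.667 in oridonin libraries 1 to 3 and 1.13, 1.14 and 0.871 in DMSO libraries 1 to 3, without overlap.

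CEBPA-DT, a divergent transcript that starts on the other side of the CEBPA promoter window printed above, did not pass the test. It had 10.5 ± 0.593 CPM with oridonin and 9.46 ± 0.722 CPM with DMSO (SD, n = 3 each), a log2 fold change of 0.15 ± 0.09 (SE, edgeR adjusted p = 0.223). The ratio of CEBPA-DT to CEBPA counts was 0.235, 0.223 and 0.187 in oridonin libraries 1 to 3 and 0.130, 0.131 and 0.128 in DMSO libraries 1 to 3. The ratio was thus higher in every oridonin library, by 0.72 on the log2 scale. Both this ratio and that of LINC00261 to FOXA2 gave p = 0.1 in the two-sided exact permutation test, the smallest possible.

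TTC6, which overlaps FOXA1 on the opposite strand, fell beside it, at 6.02 ± 0.766 CPM with oridonin and 10.1 ± 0.769 CPM with DMSO (SD, n = 3 each; log2 fold change -0.73 ± 0.11 SE, edgeR adjusted p = 5.27e-05). Only 0.402% of the exonic bases of FOXA1 are shared with it. The ratio of TTC6 to FOXA1 counts overlapped between the groups (exact permutation p = 0.4). SYMPK and IRF2BP1, near FOXA3, were not called, at log2 fold changes of -0.07 ± 0.06 and 0.10 ± 0.12 (SE). The antisense genes HNF4A-AS1, with 9 to 20 counts per library, and PROX1-AS1, with 25 to 52, were not called, at -0.55 ± 0.33 and 0.22 ± 0.24 (SE), and each had at most 1.90% of the counts of its partner.

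Among 22 further liver-enriched factors, 21 were tested, of which 11 were lower, 3 higher and 7 not called (median log2 fold change -0.35). Of all genes tested, 21.3% were lower and 20.6% higher (median 0.011). HLF, TEF and DBP, leucine zipper factors with a daily rhythm in liver, were all lower, at -0.65 ± 0.05, -0.50 ± 0.09 and -0.79 ± 0.16 (SE). CEBPG and CEBPB, relatives of CEBPA, were lower at -0.51 and -0.44, and CEBPD was not called, at -0.16 ± 0.10 (SE). HNF4G, a relative of HNF4A, and ONECUT2, a relative of ONECUT1, were lower at -0.45 and -0.46, while ONECUT3, at 0 to 7 counts in each library, did not pass the filter. ZHX2, a repressor of fetal liver genes, NR2F2, NR2F1 and SOX9, the last known from bile duct cells, were lower at -0.35, -0.40, -0.26 and -0.44. GATA4 and GATA6, zinc finger factors of endoderm, were not called, at -0.13 ± 0.06 and -0.01 ± 0.12 (SE), and the sign of GATA6 flipped with total-count scaling and in 5 other settings.

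The 3 factors that rose were TBX3, CREB3L3 and ZBTB20. TBX3, a T-box factor of hepatoblasts, had 142 ± 2.27 CPM with oridonin and 110 ± 4.70 CPM with DMSO (SD, n = 3 each). CREB3L3, a membrane-bound factor of the fasting liver, had 3.87 ± 0.647 CPM with oridonin and 1.63 ± 0.290 CPM with DMSO (log2 fold change 1.26 ± 0.18 SE, edgeR adjusted p = 3.09e-05). ZBTB20, a repressor of AFP, was weakly and unevenly expressed, at 1.29 ± 0.690 CPM with oridonin and 0.517 ± 0.0279 CPM with DMSO (SD, n = 3 each), and was not called in 2 of 12 other settings.

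**Figure D5:**
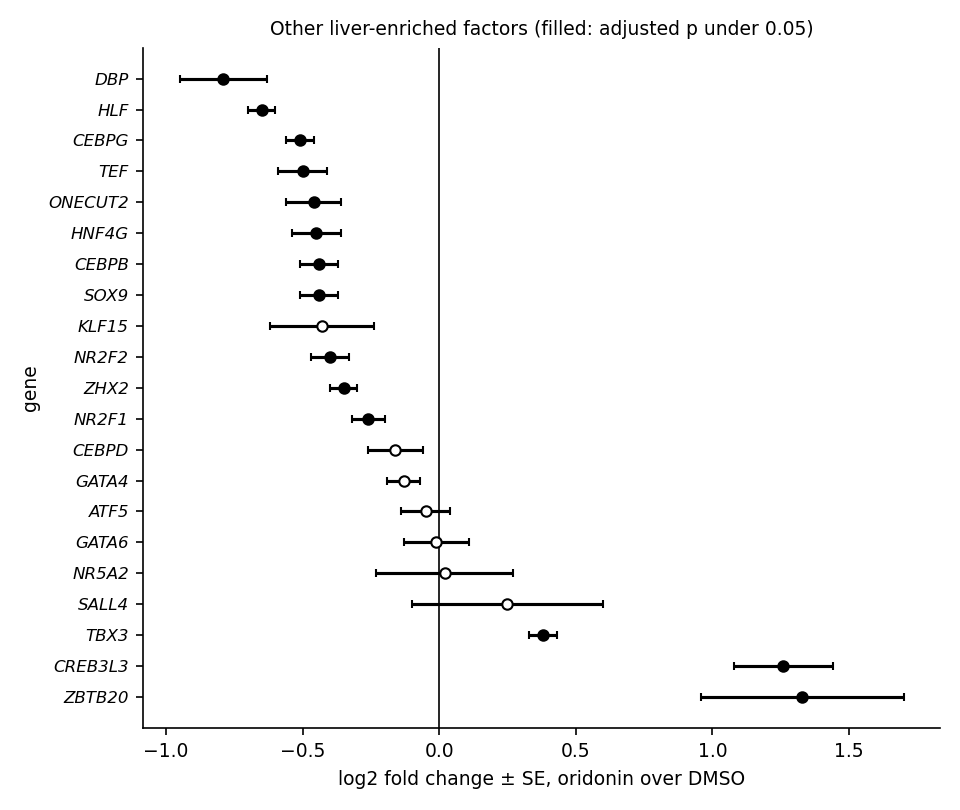
Log2 fold change with SE, oridonin over DMSO, of 21 further liver-enriched factors, filled where the edgeR adjusted p was under 0.05. DBP is the lowest at -0.79, and TBX3, CREB3L3 and ZBTB20 are the 3 filled points above 0.

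Of 16 partners and protein regulators of the 8 factors, 8 were called, 5 lower and 3 higher (median log2 fold change -0.12). That share is near the 41.9% called among all genes tested, and is no result about the list. The count of lower partners was 3 with total-count scaling and 9 with the replicate block, and HDAC3, a histone deacetylase among the 5, was not called in 9 of 12 other settings. PPARGC1A, a coactivator of HNF4A in fasting, fell to 7.44 ± 0.958 CPM with oridonin, against 19.9 ± 0.995 CPM with DMSO (SD, n = 3 each; log2 fold change -1.42 ± 0.09 SE, edgeR adjusted p = 4.7e-09). Of the Groucho-type corepressors, TLE1 fell to 148 ± 1.32 CPM with oridonin, against 222 ± 4.70 CPM with DMSO, while TLE3 rose to 42.3 ± 2.02 CPM with oridonin, against 21.5 ± 3.47 CPM with DMSO (SD, n = 3 each). TRIB1, a pseudokinase that directs CEBPA protein to degradation, rose to 196 ± 4.69 CPM with oridonin, against 150 ± 19.6 CPM with DMSO (log2 fold change 0.39 ± 0.07 SE, edgeR adjusted p = 0.000996). NCOA2, a nuclear receptor coactivator, was lower at -0.40. NR0B2, the repressor also called SHP, was not called, at 62.7 ± 2.40 CPM with oridonin and 62.9 ± 7.13 CPM with DMSO.

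Known target genes of the factors were counted by list, beside 21.3% lower and 20.6% higher among all genes tested (median log2 fold change 0.011). Of 15 tested genes in a list of 19 HNF4A targets, 9 were lower and 2 higher (median log2 fold change -0.52). APOC3, the coagulation factor gene F7 and HPN, a membrane protease, were lower at -1.45 ± 0.08, -1.03 ± 0.08 and -0.78 ± 0.06 (SE). APOA2 and CYP27A1 were higher at 0.19 and 0.13, and CYP27A1 was not called in 7 of 12 other settings. Of 9 tested genes among 10 FOXA targets, 6 were lower and none higher (median -0.50), with TF, ALB and AFP at -0.96, -0.77 and -0.71. Of 8 tested genes among 11 CEBPA targets, 7 were lower and 1, TRIB1, was higher (median -0.66). ARG1, the arginase of the urea cycle, fell to 0.819 ± 0.192 CPM with oridonin, against 4.37 ± 0.880 CPM with DMSO (SD, n = 3 each; log2 fold change -2.39 ± 0.21 SE). Of 6 targets of HHEX, ONECUT1 or PROX1, 3 were tested, and 2, namely G6PC1 and FOXA2, were lower (median -0.26). The other was HNF4A, so FOXA2 and HNF4A are counted here although they are among the 8 factors. The median is the value of FOXA2 itself, and G6PC1 had only 1 to 14 counts per library. The bile acid genes SLC10A1 and CYP7A1 had 0 to 2 counts per library and were not tested. Several genes, such as ALB, APOB, SERPINA1, G6PC1 and PPARGC1A, stand in more than 1 list, so the counts of the lists are not separate results.

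By a distance over the 6 libraries, the genes whose pattern was most like that of HHEX were GK, a glycerol kinase, and AHSG, the plasma protein fetuin. Distance here is the root mean square difference in log2 CPM after each gene is centred on its DMSO mean, among 9017 other protein-coding genes that averaged 10 CPM or more. It was 0.0282 for GK and 0.0350 for AHSG, and 83 genes lay within 0.1. For FOXA1 the nearest were CCNF, a cyclin (0.0230), and PLEKHB1 (0.0327), with 172 genes within 0.1. For ONECUT1 the nearest were MBL2, the mannose-binding lectin (0.0966), and the metallothionein MT1F (0.108), whose reads may be shared with close copies. The 6 libraries behind each distance share the treatment contrast, so any gene with a change of like size lies near.

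Totals ran from 27674586 to 30739574 counts in oridonin libraries and from 22250202 to 29352396 in DMSO libraries. The summed level of 8 hepatocyte markers was 16090 to 18570 CPM of total counts with oridonin and 26050 to 29800 with DMSO, with 6 markers lower and 1 higher. Of 6 biliary markers, 4 were tested, 2 higher (KRT19 and SPP1) and 2 lower (SOX9 and EPCAM). The sum of the list was 3306 to 3420 CPM with oridonin and 2027 to 2188 with DMSO, mostly KRT19 and SPP1. KRT7 and CFTR had 0 to 6 counts per library. Of 8 stromal and endothelial markers, 6 were tested, 3 higher and 2 lower (sum 44.5 to 47.1 CPM with oridonin and 64.5 to 70.9 with DMSO, mostly PDGFRB). Of 6 blood cell markers, 0 had enough counts to be tested (sum 0.130 to 0.253 CPM with oridonin and 0 to 0.105 with DMSO), and MS4A1 was at 0 in all libraries. Of 7 gut and pancreas markers, 4 were tested, 2 higher and 1 lower (sum 298 to 318 CPM with oridonin and 363 to 395 with DMSO, mostly VIL1), and INS was at 0. The part of these shifts in the falls of the 8 factors was not tested.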

How the data were processed

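RNA sequencing libraries from 3 oridonin-treated and 3 DMSO-treated HepG2 samples were analysed, with columns tied to libraries by the column name in the labels. The authors deposited raw counts for 60504 genes and log2 FPKM values for 18404 of them. The submitters' processing notes name hg38 and DESeq2 1.10.1. Aligner, counting program and strandedness are not given in the sources used, so overlapping and near-identical genes are uncertain.

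Counts were tested with edgeR 4.0.16 in R 4.3.3 (filterByExpr, TMM factors, glmQLFit with robust estimation, glmQLFTest, treatment as the only term) over 15116 genes, with Benjamini-Hochberg adjustment and calls under 0.05. The SE is the size of the log2 fold change over the square root of F. The edgeR fits with TMM or DESeq2 factors, the replicate block and DESeq2 were tried on simulated counts. These held far fewer changed genes than were called here. There limma was run on log2 CPM, and the other settings were not simulated. CPM values carry TMM factors unless called CPM of total counts. FPKM values were computed as powers of 2 from the deposited log2 values. Shares and ratios were tested by exact permutation (scipy 1.17.1). Alternatives were DESeq2 1.42.0, its size factors, total-count scaling, no count filter, a replicate block, limma 3.58.1 on log2 FPKM and each library left out. Libraries within a treatment differed beyond sampling noise.

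The members and the gene lists were chosen with earlier results of these data known. Some listed genes and 1 motif are not reported here and were left out of the counts of their lists. All 8 factors were named. Of further factors all called ones could be named, and of other lists the members with the smallest p, up to 3 in the main direction and 2 in the other. Factors not called, NR0B2 and markers outside this rule were named after their values were seen. Genes within 10 kb of a factor came from GENCODE 29, whose gene ends matched the deposited ones for all 8 factors. The labels name no molecular identifiers.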

Additional observations from a re-analysis of the deposited data

How the results depend on the processing

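Over 12 other settings, ONECUT1, HHEX, FOXA1, CEBPA and PROX1 kept their direction and their call. PROX1 did so only narrowly with total-count scaling (-0.17, edgeR adjusted p = 0.0478). FOXA2 missed the threshold with limma on log2 FPKM (-0.25), and FOXA3 with total-count scaling (-0.11) and with limma on log2 FPKM (-0.18); the cause was not tested. With limma on log2 FPKM, 1 target of HHEX, ONECUT1 or PROX1 was called, against 2 with edgeR, since FOXA2 is among them. HNF4A was called in none of them, and its sign reversed with total-count scaling (0.04). Leaving out 1 library at a time gave -0.22 to -0.15 for FOXA3 and 6 to 7 factors called. Total-count scaling moved the median gene by 0.08 on the log2 scale and raised the share of calls that were higher to 65.5%, against 49.2% with TMM factors. Same-numbered libraries deviated together (r = 0.194, 0.0651 and 0.173 for numbers 1, 2 and 3), each correlating best with its own number, but r for number 2 was below 0.1 and the labels tie no pairs. With the replicate block, 7 factors were called lower and 7689 of all genes, against 6332 without it. Of the 8 factors ONECUT1 had the fewest counts, 90 to 203 per library.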
